A study of Mus musculus with 13 samples.

Results

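Complex I genes were followed in enriched Sertoli cells, the somatic cells that nurse developing germ cells, from adult C57Bl/6J males. The members were the genes whose symbol starts with Nduf, without a pseudogene suffix, and whose level averaged above 0 on the log2 CPM scale (CPM, counts scaled to the TMM-normalized library total of named features, with a prior count of 2). Of 47 such rows, 46 passed, out of 27111 features with a gene name. All 46 were among the 14421 genes tested. They comprised 16 subunits of the matrix arm, 19 of the membrane arm, 8 assembly factors and 3 genes set apart. These were Ndufab1, found in both arms, Ndufa4, now placed in complex IV, and Ndufa4l2, a relative of Ndufa4. At the level threshold, Ndufaf6 (mean log2 CPM 1.39) and Ndufa4l2 (0.45) lay just inside. Ndufa4l2 passed through the MSUS samples alone, since its mean was -0.019 in controls and 0.86 in MSUS. Ndufa11b lay outside with a mean of -2.05, and it was listed at 0 in 8 samples with a highest count of 4. The row Ndufb1.ps carried a pseudogene suffix, so no Ndufb1 was counted among the members.

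RNA was sequenced from 7 MSUS and 6 control males, 1 library per animal from 5 ng of RNA. As pups, between postnatal days 1 and 14, MSUS males had been taken from their mothers at unpredictable times for 3 h each day, while the mothers were stressed by a 5 min swim at 18°C or 20 min of restraint. Control males were raised without this treatment and the cells of both groups were sorted in the same way, as large diploid cells with high MitoTracker staining. The sort therefore selected cells of both groups on a mitochondrial signal, and the litters behind the animals were not analysed here.

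Complex I is the entry point of the mitochondrial electron transport chain. Its matrix arm takes electrons from NADH through a flavin and a chain of iron-sulfur clusters to ubiquinone, and its membrane arm couples this to proton pumping. Nuclear genes encode the matrix arm and most small subunits of the membrane arm, while the mitochondrial genome encodes the membrane core. Assembly factors bind the growing complex and are absent from the finished enzyme. Sertoli cells pass lactate on to germ cells and burn lipids for their own energy, so that respiration is a large part of their metabolism.

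Control libraries held 13087203 to 18649945 counts and MSUS libraries 12701776 to 15693938. The 5 Sertoli cell markers averaged a log2 CPM of 10.18 ± 0.10 in controls (SD, n = 6), above those of elongated spermatids (7.90 ± 0.23) and of 7 other lists, and 0 markers of any list were at 0 in every sample. The 3 macrophage markers reached at most 10 counts, were each at 0 in some samples and were all at 0 in 1 sample, and 1 peritubular myoid marker was at 0 in 5 samples. Between the groups the smallest exact two-sided permutation p over the 9 lists was 0.0152 for the spermatogonium markers (adjusted p = 0.136, log2 CPM from -0.83 to -0.51). The nuclear RNA Malat1, which moves with several results that follow, had a log2 CPM of 9.93 ± 0.56 (SD, n = 6) in controls and of 10.63 ± 0.43 (SD, n = 7) in MSUS, with an exact two-sided permutation p of 0.028.

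In controls the subunit genes were high and the assembly factors low. Divided by the median length of the annotated protein-coding transcripts, the median level was 49.6 CPM per kilobase over the 16 matrix arm genes, 53.4 over the 19 membrane arm genes and 11.6 over the 8 assembly factors. The order of the classes was the same with the longest transcript (32.5, 51.1 and 6.72 CPM per kilobase) and with an effective length (68.7, 72.2 and 13.2). Both arms overlapped widely in their members, and no difference between them was read from these medians.

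Ndufa6, a small matrix arm protein that binds an acyl carrier protein, had the highest level per length with 176 ± 16.9 CPM per kilobase (SD, n = 6). Ndufb10, on the intermembrane side of the membrane arm, had 128 ± 9.23 and Ndufa10, a membrane arm subunit related to nucleoside kinases, had 111 ± 10.4. Ndufa6 ranked first under each of the 3 lengths. Ndufs1, the largest core subunit, had 104 ± 7.91 but moved from rank 5 to rank 28 when the longest transcript replaced the median one, so its place in the order is not settled.

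At the other end of the matrix arm were Ndufs8 (24.03 ± 2.16 CPM per kilobase), which carries iron-sulfur clusters, and Ndufs7 (17.5 ± 3.35), a core subunit near the site of ubiquinone. The range of Ndufs7 over controls, 15.1 to 24.03, met that of Ndufs8, 21.6 to 26.3. In the membrane arm the lowest were the distal subunits Ndufb3 (9.57 ± 2.21) and Ndufb2 (2.59 ± 0.52), the second on a long median transcript of 2413 bases.

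Among the assembly factors the order ran from Ndufaf2 to Ndufaf6. Ndufaf2, a relative of the subunit Ndufa12 that acts late in assembly, had 31.1 ± 1.18 CPM per kilobase. Next came Ndufaf3 (23.7 ± 2.69), which helps to build the ubiquinone module, and Ndufaf8 (20.3 ± 2.62), the partner of Ndufaf5. Ndufaf7, a methyltransferase, and Ndufaf4, the partner of Ndufaf3, did not differ beyond their spread (11.6 ± 2.01 and 11.6 ± 1.24). Ndufaf1, which builds the membrane arm, had 6.71 ± 1.35. Ndufaf5, which hydroxylates Ndufs7, had 3.22 ± 0.72 and Ndufaf6 had 2.23 ± 0.93, with ranges that overlapped. Of the genes set apart, Ndufab1, the acyl carrier protein found in both arms, had 42.0 ± 7.77 and Ndufa4, now placed in complex IV, had 36.6 ± 5.61. Its relative Ndufa4l2 had the lowest level of the 46 genes, 1.01 ± 0.59.

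**Figure D1:**
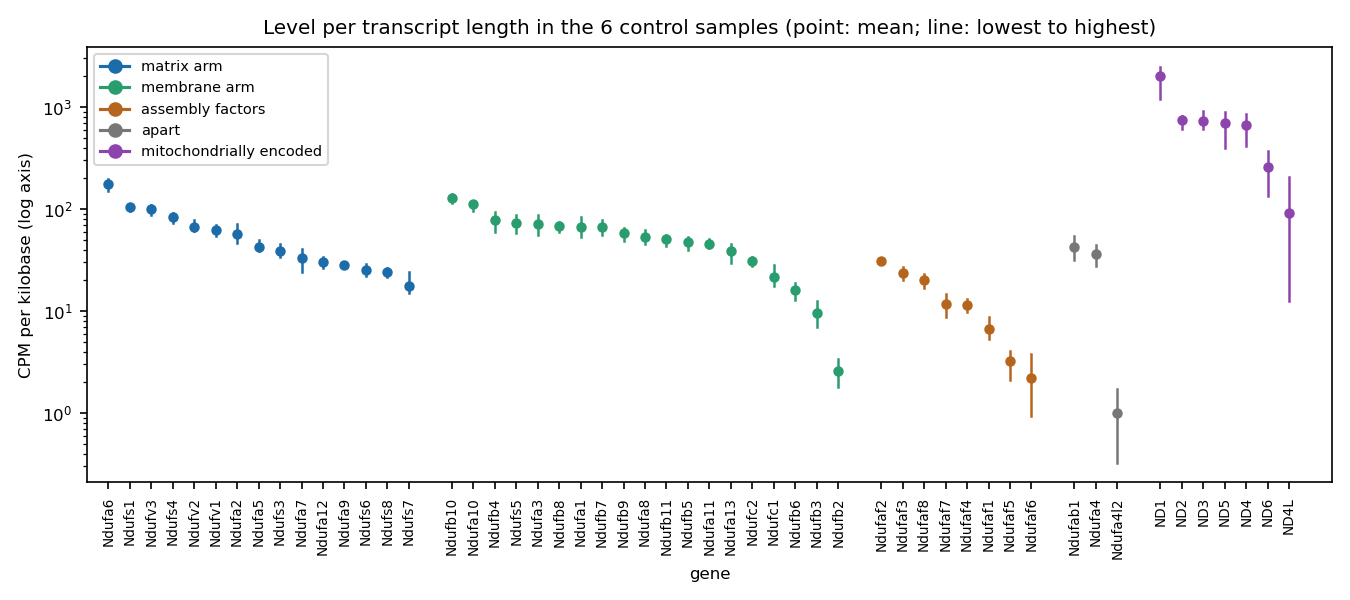
Level per transcript length of 52 complex I genes in the 6 control samples, on a log axis of CPM per kilobase; points are means and lines run from the lowest to the highest control. Subunit genes of both arms lie mostly above the assembly factors, Ndufa6 leads the nuclear genes with 176 and Ndufa4l2 is lowest with 1.01.

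The mitochondrially encoded genes were counted under their own names (ND1 to ND6 and ND4L), and their median level was 700 CPM per kilobase in controls. ND1 was highest with 2026 ± 467 and ND4L lowest with 91.4 ± 75.8. These levels depend on how the library captured mitochondrial transcripts, and the ND4L value rests on reads that Salmon divided between this gene and a feature with no gene name, as described further on.

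The promoters of the nuclear members were read from RefSeq (GRCm38.p6), as 250 bases before to 50 bases after the start, for 40 of the 46 genes (42 promoters). Matches on both strands were counted for motifs named after factors known from mitochondrial gene control. AAGATGGCG (YY1) was in 14.3% of the 42 promoters against 1.40% of the 32851 in the table, GCGCATGCG (NRF1) in 9.52% against 1.75%, and CCGGAAG (ETS family) in 14.3% against 8.86%. GGGCGG (SP1) was in 52.4% against 35.7%. TCAAGGTCA (ESRRA) was in 0.0% against 0.423%. Of the promoters, 31 of 42 held at least 1 of these motifs. The same share over all promoters was not counted, and SP1 alone was in 35.7% of them. The count is therefore not a trait of complex I genes. A match is a description of letters and not a binding site. The NRF1 matches on both strands of Ndufa11, Ndufaf4 and Ndufaf5 overlap each other, and the ETS and SP1 matches of Ndufs3 overlap by a few bases.

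The 6 genes with a YY1 match (Ndufa9, Ndufaf8, Ndufc1, Ndufs4, Ndufs6 and Ndufs7) shared its placement. All 6 matches lay on the coding strand and began between position 11 (Ndufaf8) and position 36 (Ndufs4), counted from the start as position 1. Of the genes with a promoter in the table, 4 of 13 matrix arm genes, 1 of 18 membrane arm genes and 1 of 7 assembly factors held it. The NRF1 match was in 0 of 13 matrix arm genes, in 2 of 18 membrane arm genes (Ndufa8 and Ndufa11) and in 2 of 7 assembly factors (Ndufaf4 and Ndufaf5). The promoters of Ndufa9 and Ndufa1, the subunit genes lower in MSUS, are shown with those of Ndufa8 and Ndufaf8, which carry the NRF1 match and the YY1 with the ETS match, each 5′ to 3′ on the strand of the gene with motif matches in capitals. They lie at chr6:126849095-126849394 (Ndufa9, minus strand), chrX:37191189-37191488 (Ndufa1, minus strand; RefSeq places this start upstream of the gene end in GENCODE vM21), chr2:36049289-36049588 (Ndufa8, minus strand) and chr11:120098684-120098983 (Ndufaf8, plus strand).
Ndufa9: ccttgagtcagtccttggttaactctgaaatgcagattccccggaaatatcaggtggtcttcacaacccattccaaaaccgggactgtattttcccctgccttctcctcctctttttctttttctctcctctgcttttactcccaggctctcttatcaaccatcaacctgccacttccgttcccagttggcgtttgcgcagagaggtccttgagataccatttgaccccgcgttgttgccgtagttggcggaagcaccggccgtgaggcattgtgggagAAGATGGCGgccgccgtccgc
Ndufa1: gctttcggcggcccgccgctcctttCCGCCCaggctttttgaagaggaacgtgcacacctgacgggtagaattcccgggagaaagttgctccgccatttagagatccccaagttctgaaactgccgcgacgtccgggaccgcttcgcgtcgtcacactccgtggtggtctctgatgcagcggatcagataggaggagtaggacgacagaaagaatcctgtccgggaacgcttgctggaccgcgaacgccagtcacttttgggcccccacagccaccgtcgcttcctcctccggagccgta
Ndufa8: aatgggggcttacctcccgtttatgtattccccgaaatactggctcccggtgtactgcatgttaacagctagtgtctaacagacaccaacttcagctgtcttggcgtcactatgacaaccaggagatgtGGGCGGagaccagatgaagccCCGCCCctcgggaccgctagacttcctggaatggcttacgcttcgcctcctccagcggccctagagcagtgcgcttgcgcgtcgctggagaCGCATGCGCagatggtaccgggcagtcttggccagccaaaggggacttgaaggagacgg
Ndufaf8: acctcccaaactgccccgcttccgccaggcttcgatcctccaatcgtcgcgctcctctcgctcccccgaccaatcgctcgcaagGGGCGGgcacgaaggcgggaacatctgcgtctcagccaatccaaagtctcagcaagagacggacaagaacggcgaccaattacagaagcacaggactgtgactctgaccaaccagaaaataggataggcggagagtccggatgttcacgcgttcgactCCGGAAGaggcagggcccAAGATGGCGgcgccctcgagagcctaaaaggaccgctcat
In Ndufa9 the capitals mark YY1 at position 30. In Ndufa1 they mark SP1 on the opposite strand at position -225, the sole match in that promoter. Ndufa8 has SP1 at -121 and, on the opposite strand, SP1 at -100 and NRF1 at -9. Ndufaf8 has SP1 at -166, ETS at -8 and YY1 at 11.

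The comparison of MSUS with control asked whether complex I genes differed in Sertoli cells of adult males stressed early in life. The differences were small. Of the 46 genes, 2 were lower in MSUS at an unadjusted p under 0.05 in limma voom (Ndufa9 and Ndufa1) and 1 was higher (Ndufa4l2). Over all genes tested, 5.42% passed this rule, 2.4% lower and 3.02% higher, so the counts among complex I genes were near the background. The gene counted as higher, Ndufa4l2, belongs to the genes set apart and is a member through its MSUS level alone. This count therefore supports no rise among complex I genes. The threshold is the one the study used. With Benjamini-Hochberg adjustment in limma voom, 0 of the 46 genes and 0 of the 14421 tested passed (lowest adjusted p of the 46 = 0.878). edgeR's quasi-likelihood test and DESeq2 also gave 2 lower and 1 higher at an unadjusted p under 0.05, and 0 after adjustment. An exact two-sided permutation test of the levels, gene by gene, gave the same 2 lower genes and 0 higher, against 2.74% and 2.73% of all genes.

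The intervals were narrow. For 44 of the 46 genes the 95% confidence interval of the fold change lay within 1.5-fold in either direction, against 71.1% of all genes tested, and the exceptions were Ndufa4l2 and Ndufaf6. This was not particular to complex I. It also held for 4 of 4 nuclear genes of complex II, 8 of 9 of complex III, 10 of 11 of complex IV and 15 of 15 of complex V. Among ribosomal protein genes it held for 76 of 79. The median SD between control animals was 0.13 on the log2 scale for matrix arm genes, 0.22 for membrane arm genes and 0.22 for assembly factors, against 0.20 over all genes. In these bulk samples, fewer cells of a type and less RNA per cell cannot be told apart.

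**Figure D2:**
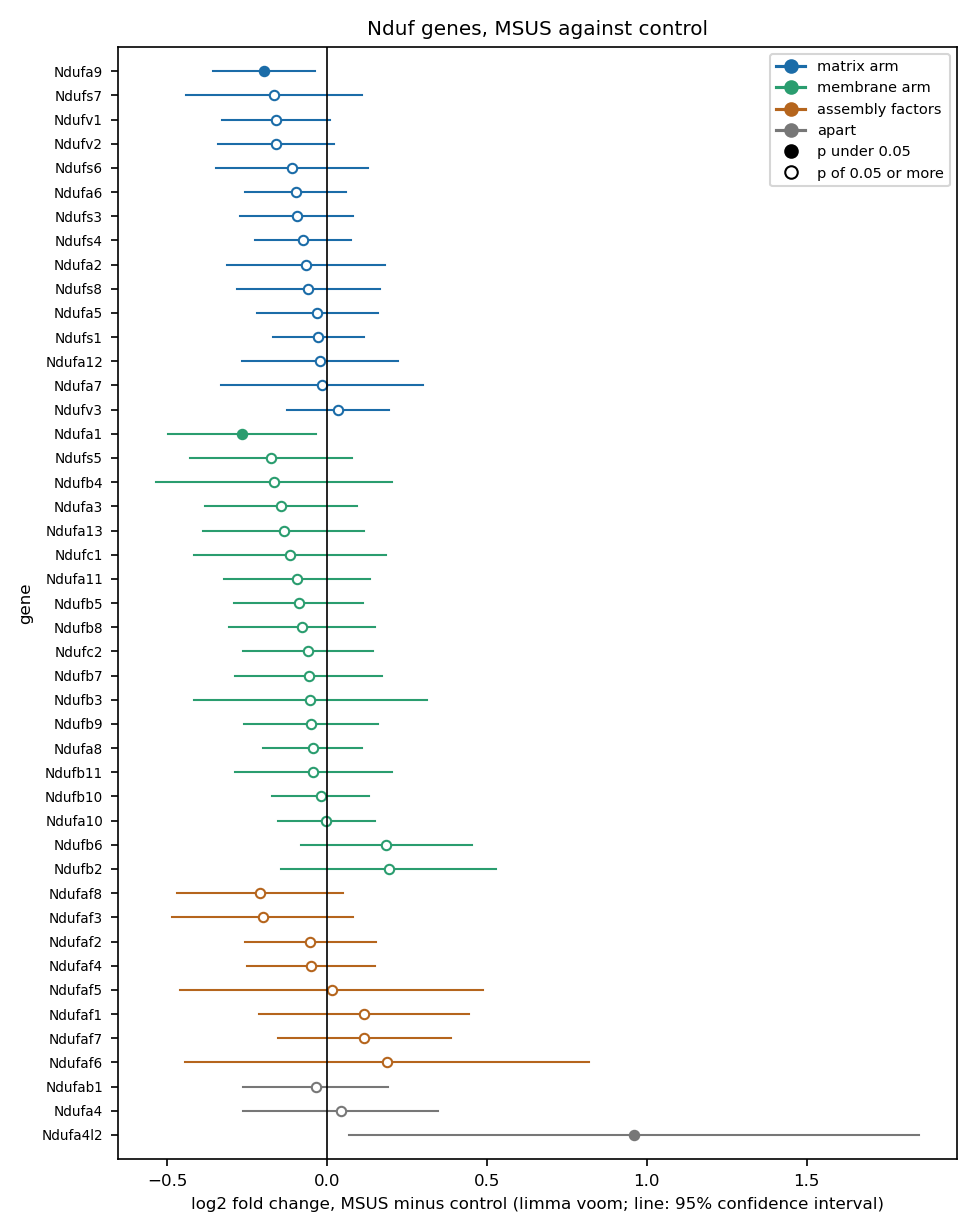
Log2 fold change of 45 Nduf genes, MSUS minus control, with 95% confidence intervals from limma voom, ordered by class; filled points have an unadjusted p under 0.05. Filled points are Ndufa9 at -0.20, Ndufa1 at -0.27 and Ndufa4l2 at 0.96, and most points of both arms lie slightly left of 0.

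The direction was uneven between the arms and the 8 Ndufaf assembly factors. A log2 fold change below 0, whatever its p, was found for 15 of 16 matrix arm genes, 17 of 19 membrane arm genes, 4 of 8 assembly factors and 1 of 3 genes set apart. In all, 37 of 46 genes (80.4%) were on that side, against 50.5% of all genes tested. The median log2 fold change was -0.07 in the matrix arm, -0.06 in the membrane arm and -0.02 among the Ndufaf assembly factors, while it was -0.0018 over all genes. Assembly factors whose symbols do not start with Nduf went with the arms, with 10 of 12 below 0 and a median of -0.12. Genes of 1 sample share its cells and its depth, so these counts are not independent observations, and the difference between the classes was not tested.

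Per sample, the mean deviation of the 16 matrix arm genes from their mean over all samples averaged 0.045 ± 0.098 (SD) over the 6 controls and -0.039 ± 0.118 over the 7 MSUS samples. Controls ranged from -0.10 (control sample 10) to 0.19 (control sample 24), and MSUS samples from -0.24 (MSUS sample 26) to 0.11 (MSUS sample 23). The groups overlapped over most of their range. The membrane arm gave 0.037 ± 0.108 in controls and -0.032 ± 0.130 in MSUS, again with control sample 24 highest among controls at 0.18 and MSUS sample 26 lowest at -0.26. For the assembly factors the values were 0.005 ± 0.115 and -0.004 ± 0.109.

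**Figure D3:**
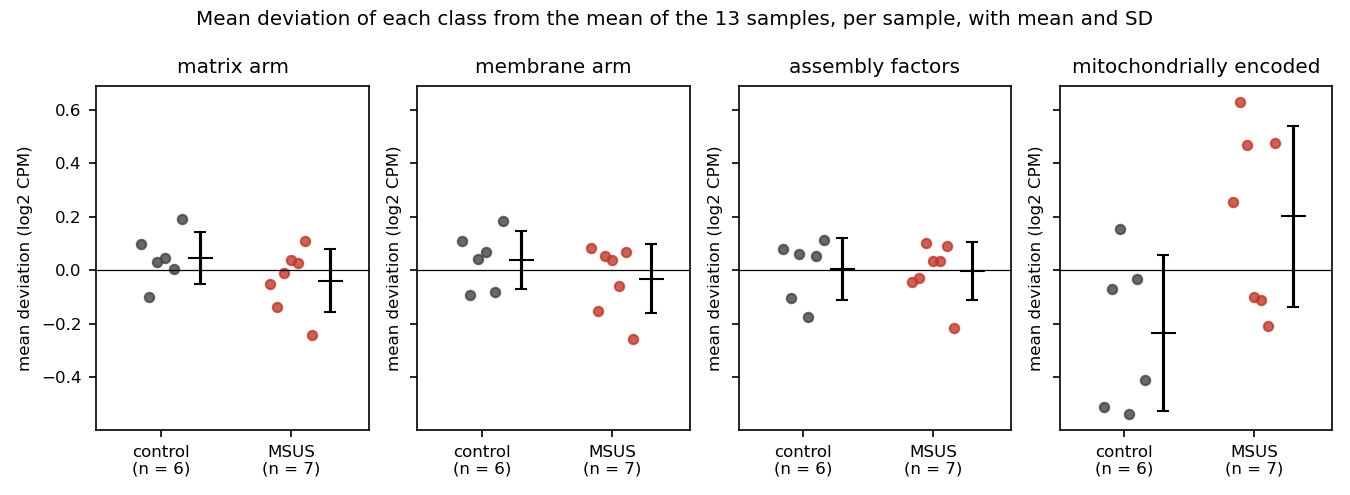
Mean deviation in log2 CPM of each gene class from its mean over the 13 samples, per sample; points are samples, and the bar beside them is the mean with SD. The groups overlap in each class, with MSUS sample 26 lowest in both arms (-0.24 and -0.26) and the mitochondrially encoded genes spread over a wider range.

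The tilt to lower values rested in part on 1 sample. Without MSUS sample 26, 27 of 46 genes had a log2 fold change below 0 (48.9% of all genes in that fit), and the medians were -0.04 in the matrix arm and -0.03 in the membrane arm. Without control sample 10, the lowest control in both arms, the count was 39 (50.9% of all genes) and the medians were -0.12 and -0.11. The number of genes lower at an unadjusted p under 0.05 in limma voom was then 6 (Ndufa6, Ndufa9, Ndufv1, Ndufv2, Ndufa1 and Ndufa3), while 3.5% of all genes were lower in that fit. Without MSUS sample 11 it was 4, while 3.31% of all genes were lower.

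Other measures moved with these genes. Malat1 itself was higher in MSUS (log2 fold change 0.70, unadjusted limma voom p of 0.00505). A fit with Malat1 as covariate therefore also takes up part of the group difference. A call lost in that fit, here or for single genes below, cannot be told apart from this overlap. With Malat1 as a covariate, 12 of 46 genes had a log2 fold change below 0 (50.4% of all genes in that fit), 0 passed an unadjusted p under 0.05 in limma voom (1.38% of all genes lower and 1.4% higher), and the medians were 0.03 in the matrix arm, 0.06 in the membrane arm and 0.03 among assembly factors. With the mean level of 79 ribosomal protein genes as covariate 20 of 46 were below 0, and with the share of mitochondrially encoded counts 22 of 46, against 50.5% and 49.7% of all genes. The elongated spermatid markers as covariate gave 37 of 46 below 0 (50.8% of all genes), 3 lower at an unadjusted p under 0.05 in limma voom (2.93% of all genes) and medians of -0.10 in the matrix arm and -0.09 in the membrane arm. The ribosomal protein genes had 75 of 79 log2 fold changes below 0 in the main fit (50.5% of all genes), with a median of -0.11. Of these genes, 13 were lower at an unadjusted p under 0.05 in limma voom (2.4% of all genes). Their mean deviation was also highest in control sample 24 among controls and lowest in MSUS sample 26. Nuclear genes of the other complexes had medians of -0.10 (complex II, 4 of 4 below 0), -0.16 (complex III, 8 of 9), -0.15 (complex IV, 10 of 11) and -0.11 (complex V, 14 of 15). Each was further below 0 than the medians of both arms of complex I. Over all genes tested, 50.5% were below 0. Correcting each sample for transcript length and GC content left 32 of 46 below 0 (50.6% of all genes in that fit), with medians of -0.037 in the matrix arm and -0.043 in the membrane arm and 3 genes lower at an unadjusted p under 0.05 in limma voom (2.5% of all genes).

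**Figure D4:**
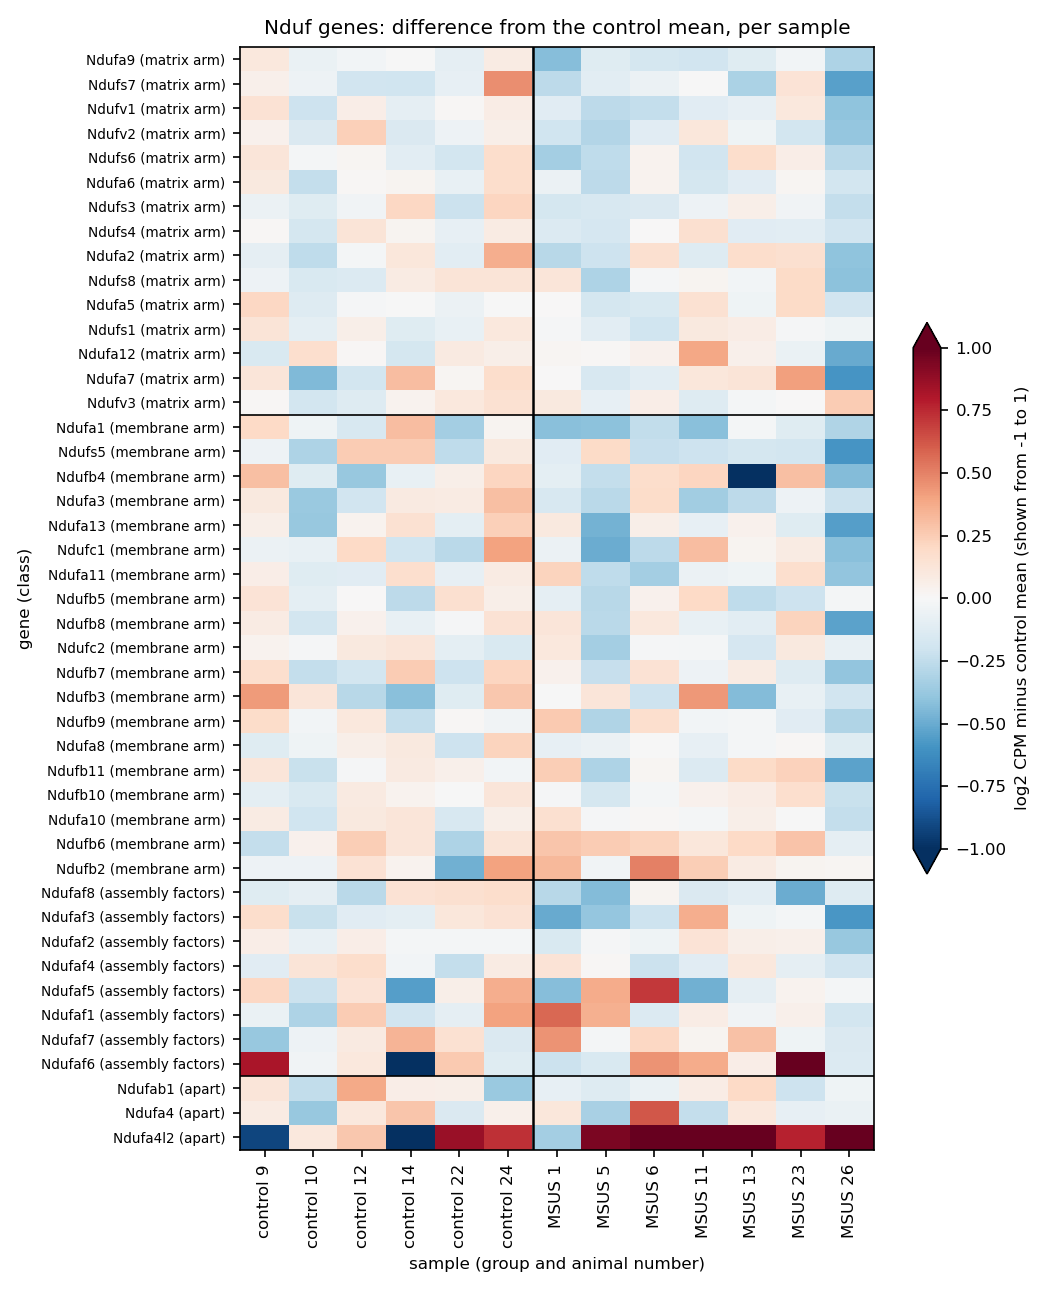
Level of each of 45 Nduf genes in each of the 13 samples as the difference in log2 CPM from the control mean, by class; red is higher, blue lower, and values past 1 in either direction share the end colour. The column of MSUS sample 26 is blue for most subunit genes, and Ndufa4l2 and Ndufaf6 show the widest spread.

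In the matrix arm, Ndufa9 had a lower level in MSUS. Ndufa9 (chromosome 6, 126821721 to 126849136, minus strand, GENCODE vM21 on GRCm38) encodes an accessory subunit at the joint between both arms. Control samples spanned a log2 CPM of 5.16 to 5.36 (median 5.24) and MSUS samples one of 4.83 to 5.23 (median 5.08). All 7 MSUS samples were below the control mean and 6 were below the lowest control, so that the groups overlapped by 1 sample. The log2 fold change was -0.20 (SE 0.08), with a 95% interval of 0.78 to 0.97 in fold change, an unadjusted p of 0.0187 and an adjusted p of 0.878 in limma voom. An exact two-sided permutation test of the levels gave p = 0.00583. With each sample left out in turn, its unadjusted p stayed between 0.0109 and 0.0448 in all 13 fits. With Malat1 as covariate the log2 fold change was -0.14 and no longer passed.

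The subunits that take up electrons lay on the same side without passing the test. Ndufv1, which binds NADH and the flavin, spanned 6.28 to 6.63 (median 6.53) among controls and 6.08 to 6.60 (median 6.37) among MSUS samples. Its iron-sulfur partner Ndufv2 spanned 5.62 to 5.999 (median 5.76) and 5.38 to 5.88 (median 5.58). Their log2 fold changes were each -0.16 (exact two-sided permutation p = 0.0828 and 0.104), and 6 MSUS samples were below the mean of controls for each gene. Both were near 0 with Malat1 as covariate (-0.00 and -0.01). They are named here because their values lay next to the threshold.

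Ndufs7 had the next lowest value of the matrix arm after Ndufa9, with a log2 fold change of -0.17 (SE 0.13) and wide overlap between groups (3.73 to 4.40 among controls and 3.39 to 4.07 among MSUS samples). Ndufs1, which holds part of the iron-sulfur chain, had -0.03 (SE 0.07), with an interval of 0.89 to 1.08 in fold change. Ndufs8 had -0.06 and the most abundant member, Ndufa6, -0.10 (SE 0.07). Ndufv3, an accessory subunit of the NADH-binding module, was the sole matrix arm gene above 0, with 0.03 (SE 0.08). Another 7 matrix arm genes (Ndufs3, Ndufs4, Ndufs6, Ndufa2, Ndufa5, Ndufa7 and Ndufa12, accessory but for Ndufs3) lay between -0.11 and -0.02.

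In the membrane arm, Ndufa1 had a lower level in MSUS. Ndufa1 (chromosome X, 37187588 to 37191163, minus strand) encodes a small single-pass subunit needed early in the build of this arm. Control samples spanned 4.47 to 5.12 log2 CPM (median 4.80) and MSUS samples 4.39 to 4.79 (median 4.51). All 7 MSUS samples were below the control mean, but just 3 were below the lowest control. The log2 fold change was -0.27 (SE 0.11), with a 95% interval of 0.71 to 0.98 in fold change, an unadjusted p of 0.0268 and an adjusted p of 0.878 in limma voom. The exact two-sided permutation test of its levels gave p = 0.0315. The unadjusted limma voom p no longer passed without MSUS sample 1 (0.051), without MSUS sample 5 (0.0522), without control sample 14 (0.0671) or without control sample 9 (0.0682). With Malat1 as covariate it was -0.17 and did not pass.

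Ndufb6 and Ndufb2, distal membrane arm subunits, were the 2 genes of this arm above 0. Ndufb2 spanned 2.18 to 3.06 (median 2.65) among controls and 2.62 to 3.16 (median 2.74) among MSUS samples, with a log2 fold change of 0.19 (SE 0.16). Ndufb6 spanned 2.89 to 3.44 (median 3.28) and 3.10 to 3.48 (median 3.41), with 0.19 (SE 0.13) and 6 MSUS samples above the mean of controls. The groups overlapped for both genes and neither passed the test. Ndufa10 and Ndufb10, the most abundant genes of the arm, were at -0.00 (SE 0.07) and -0.02 (SE 0.07), with 95% intervals of 0.90 to 1.11 and 0.89 to 1.095 in fold change. Ndufb3 had -0.05 (SE 0.17). Ndufa8, which holds disulfide bonds on the intermembrane side, had -0.05 (SE 0.07) and an SD of 0.05 over MSUS samples, against 0.16 over controls.

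Ndufb4 and Ndufs5 had log2 fold changes of -0.17 (SE 0.18) and -0.18 (SE 0.12), and both share reads with other features. Where reads match a gene and another feature, Salmon divides them, and the fractions then leave non-whole counts. For Ndufb4, a membrane arm subunit, 55.8% of the reads it shares or owns lay on features with no gene name in MSUS sample 13 and 36.7% in control sample 12, while the share was 15.9% or less in the others. In MSUS sample 13 the level of Ndufb4 was 5.15, the lowest of all 13 samples. With those reads added back the log2 fold change was -0.10, and for Ndufs5, where 0.0 to 33.3% lay elsewhere, it was -0.11. Adding the reads took Ndufs6 from -0.11 to -0.05 and Ndufa12 from -0.02 to 0.01. Ndufs3 moved slightly the other way, from -0.096 to -0.106. Ndufab1 and Ndufaf7 had non-whole counts in all 13 samples, and the feature that shares their reads was not found, nor was it for Ndufb2, Ndufc1, Ndufs1, Ndufaf2 and Ndufv3. Values of these genes are uncertain to that degree.

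The other 10 membrane arm genes (Ndufa3, Ndufa11, Ndufa13, Ndufb5, Ndufb7, Ndufb8, Ndufb9, Ndufb11, Ndufc1 and Ndufc2) lay between -0.14 and -0.04, and 0 of them passed the test at an unadjusted p under 0.05 in limma voom, edgeR or DESeq2. Ndufa3 was lowest with -0.14 (SE 0.11) and Ndufb11, the second X-linked member, was at -0.04 (SE 0.12). None of the 46 genes had groups that did not overlap, which was true of 0.0555% of all genes tested for lower and 0.0763% for higher values in MSUS.

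The 8 assembly factors split evenly. Ndufaf8 spanned 3.36 to 3.81 (median 3.66) among controls and 3.14 to 3.66 (median 3.48) among MSUS samples, with a log2 fold change of -0.21 (SE 0.12, exact two-sided permutation p = 0.0524). Ndufaf3 spanned 4.33 to 4.72 (median 4.55) and 3.96 to 4.91 (median 4.34), with -0.20 (SE 0.13, exact two-sided permutation p = 0.206). For each, 6 MSUS samples were below the mean of controls, and neither passed in limma voom. Without MSUS sample 11, the highest for Ndufaf3, the unadjusted limma voom p of Ndufaf3 was 0.0222, and without control sample 12 that of Ndufaf8 was 0.0482.

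The remaining assembly factors were near 0 or imprecise. Ndufaf2 and Ndufaf4 were both at -0.05 (SE 0.10), and Ndufaf2 had the smallest SD of any assembly factor in controls, 0.05. Ndufaf5, which acts with Ndufaf8, was at 0.01 (SE 0.23). Ndufaf1 and Ndufaf7 were at 0.11 (SE 0.16) and 0.12 (SE 0.13), and Ndufaf6 at 0.19 (SE 0.30). The 95% interval of Ndufaf6 reached from 0.73-fold to 1.76-fold, at a depth of at most 50 counts per sample.

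Of the genes set apart, Ndufa4l2 passed the test at very low counts, with a higher level in MSUS, the group through which it entered the list. Ndufa4l2 (chromosome 10, 127514967 to 127517154, plus strand) is a relative of Ndufa4 that is known to be induced by low oxygen. Its estimated counts were 3 to 22 in controls and 7 to 27 in MSUS, and its log2 CPM was -1.06 to 0.84 (median 0.17) and -0.36 to 1.37 (median 0.99), respectively. Of the MSUS samples, 5 were above the highest control, and MSUS samples 1 and 23 were within the control range. The log2 fold change was 0.96 (SE 0.42), with a 95% interval of 1.05 to 3.61 in fold change, an unadjusted p of 0.0362 and an adjusted p of 0.878 in limma voom. The exact two-sided permutation test of its levels gave p = 0.0513, so this gene did not pass under that test.

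The call on Ndufa4l2 depended on single samples. Its unadjusted limma voom p no longer passed without MSUS sample 5 (0.05), 6 (0.0641), 11 (0.0602), 13 (0.0512) or 26 (0.0523), or without control sample 9 (0.0973), 10 (0.0534) or 14 (0.0935). Without MSUS sample 1 it was 0.00466. Ndufa4 was at 0.04 (SE 0.14) and Ndufab1 at -0.04 (SE 0.11), with overlapping groups.

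**Figure D5:**
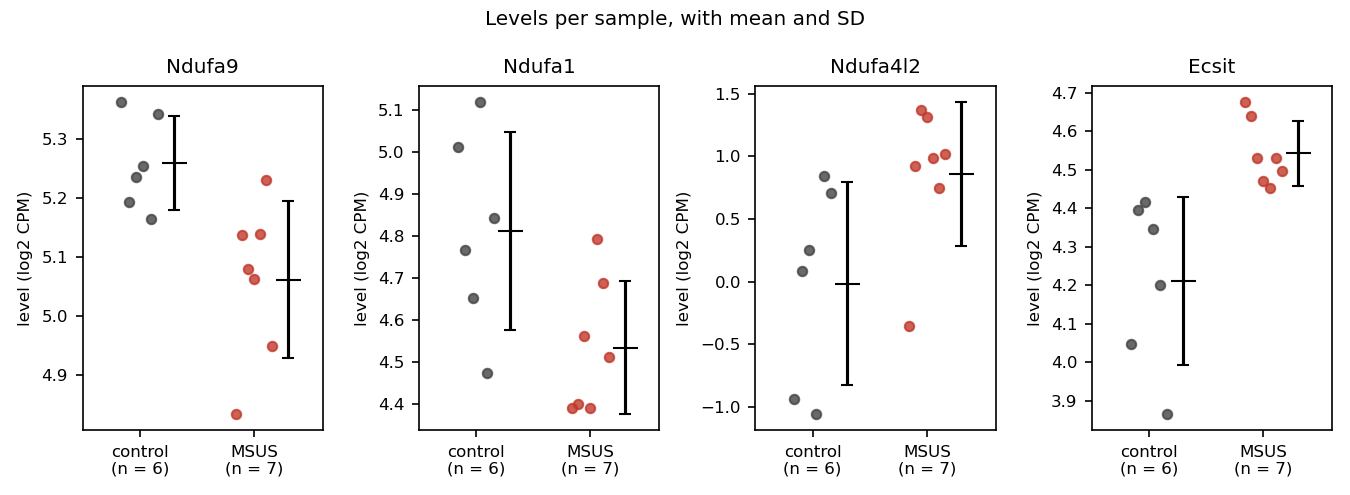
Level in log2 CPM per sample of the 3 Nduf genes with an unadjusted p under 0.05 and of the assembly factor gene Ecsit; points are samples, and the bar beside them is the mean with SD. For Ecsit the 7 MSUS samples (4.45 to 4.68) lie above the 6 controls (3.87 to 4.41), as for 0.0763% of all genes tested. For the other genes the groups overlap.

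Among 12 tested assembly factors whose symbols do not start with Nduf, Ecsit was higher in MSUS. Ecsit acts with Ndufaf1 and Acad9 in building the membrane arm and also has a role in Toll receptor signalling. Control samples spanned 3.87 to 4.41 log2 CPM (median 4.27) and MSUS samples 4.45 to 4.68 (median 4.53). Each of the 7 MSUS samples was above the highest control, which was true of 0.0763% of all genes tested. The exact two-sided permutation p of the levels was 0.00117, the smallest that the design allows. After Benjamini-Hochberg adjustment over all genes tested, the lowest permutation p of the 12 factors was 0.855. The log2 fold change was 0.32 (SE 0.10), with an unadjusted p of 0.0045 and an adjusted p of 0.878 in limma voom, and the unadjusted p stayed between 0.00296 and 0.0132 with each sample left out in turn. With Malat1 as covariate the log2 fold change was 0.19 and did not pass in limma voom. The counts of Ecsit were non-whole in all 13 samples and the feature that shares its reads was not found. Ndufaf1, its partner, was at 0.11 (SE 0.16).

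Timmdc1, which assembles the ND1 part of the membrane arm, was lower in MSUS. Control samples spanned 4.75 to 5.16 log2 CPM (median 5.04) and MSUS samples 4.66 to 4.995 (median 4.75). The log2 fold change was -0.20 (SE 0.09), with an unadjusted p of 0.0368 and an adjusted p of 0.878 in limma voom and an exact two-sided permutation p of 0.035. The unadjusted p no longer passed in 8 of the 13 fits that leave out a sample, namely MSUS sample 6 (0.0656), 11 (0.0655), 13 (0.0639) or 26 (0.0819), or control sample 9 (0.0901), 12 (0.0754), 14 (0.0788) or 22 (0.0539). Of the 12 factors, 10 had a log2 fold change below 0, with a median of -0.12.

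The mitochondrially encoded subunits lay on the opposite side from the nuclear ones. Of 7 genes, 6 had a log2 fold change above 0, with a median of 0.40, while 50.5% of all genes tested were below 0. At an unadjusted p under 0.05 in limma voom 4 were higher, against 3.02% of all genes. In the exact permutation test of the levels 0 of the 7 passed, against 2.73% of all genes higher. These genes share the same samples, so the counts are not independent observations. edgeR and DESeq2 also called 4 higher, with ND2 in place of ND4L, and called ND3 lower. ND6 spanned 6.13 to 7.59 log2 CPM (median 7.12) among controls and 7.01 to 8.34 (median 7.57) among MSUS samples, with a log2 fold change of 0.66 (SE 0.24). Its unadjusted p of 0.0123 passed in limma voom, also in each of the 13 fits that leave out a sample, but the exact two-sided permutation p of its levels was 0.0513. ND4 had 0.46 (SE 0.19, unadjusted limma voom p of 0.0255) and ND1 0.40 (SE 0.18, unadjusted limma voom p of 0.0362), with 4 MSUS samples above the highest control for each. Both lost their call without MSUS sample 5, 6 or 26 or control sample 9 or 24, with unadjusted p up to 0.0786 for ND4 and 0.115 for ND1, and the exact two-sided permutation p was 0.0769 and 0.1002. The adjusted limma voom p was 0.878 for each. The study reports that mitochondrial copy number differed between the groups in this cohort. By RT-qPCR in a second cohort, it found ND4 and ND6 lower in MSUS, opposite to the direction here. Neither point was tested here.

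ND5 and ND2 were at 0.39 (SE 0.19) and 0.25 (SE 0.13) and ND3 at -0.19 (SE 0.09) and did not pass in limma voom. ND2 (unadjusted p of 0.0473 and 0.0316) and ND3 (unadjusted p of 0.0452 and 0.0468) passed in edgeR and DESeq2 before adjustment. For ND3, 4.89% to 9.18% of reads lay on a feature with no gene name in MSUS samples 1, 5, 6 and 11. In the other samples, controls included, this share was 0.0%. With these reads added back the log2 fold change of ND3 was -0.14 (unadjusted limma voom p of 0.157). ND4L had 1.05 (SE 0.46, unadjusted limma voom p of 0.033), but between 52.7% and 98.2% of its reads lay on a feature with no gene name. Its call was lost without MSUS sample 1, 5 or 26 or control sample 9, 10 or 14, with unadjusted p up to 0.106, and in edgeR and DESeq2 (unadjusted p of 0.158 and 0.245), and the exact two-sided permutation p was 0.129. With the reads added back the log2 fold change of ND4L was 0.44. With Malat1 as covariate ND1 (-0.06), ND2 (-0.04), ND4 (-0.04) and ND5 (-0.12) were below 0, and ND6 was 0.03. Levels of these genes and of Malat1 moved together between the groups, and their part in the results on nuclear genes was not tested beyond these fits.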

How the data were processed

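RNA of sorted Sertoli cells from 13 males (6 control, 7 MSUS) was sequenced, 1 library per animal. The authors trimmed single-end reads with Trim Galore 0.6.5, assigned them to GENCODE transcripts with Salmon 1.1.0 and deposited estimated counts per gene, not normalized. How transcripts were summed to genes and whether strand was used are not given in the sources used here, so antisense overlap could not be told apart. Of 54281 features, 27170 had no gene name (20.7% to 26.7% of counts) and were left out. 0 columns lacked a sample.

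Counts were rounded, filtered by filterByExpr, TMM-normalized (edgeR 4.0.16, R 4.3.3) and fitted by limma 3.58.1 with voom on group alone, since the study's methods use it with unadjusted p. Adjusted p-values are Benjamini-Hochberg over 14421 genes, and levels were also compared gene by gene by exact two-sided permutation tests. The test was tested on simulated data. At an unadjusted p under 0.05, limma voom called 5.12% of unchanged genes and 53.6% of those with an absolute log2 fold change of 0.3. After adjustment it called 0.0285% and 9.28%, so most changes of that size did not pass. Alternatives were edgeR's quasi-likelihood test, DESeq2 1.42.0, other scalings and filters, covariates, a length and GC correction, and leaving out each sample. Reads shared with another feature were found where counts summed to whole numbers within 0.004, and adding them back was an alternative chosen after seeing the data, as were the permutation tests of single genes.

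Members, gene lists and tests were chosen with earlier results of these data known. Genes were named by rule: those with p under 0.05, the 3 lowest and 3 highest log2 fold changes, the 2 highest and 2 lowest levels per length of each arm, all assembly factors, the genes set apart or next to the level threshold, and the mitochondrially encoded genes. Other members described singly, such as Ndufv1, Ndufv2, Ndufa8, Ndufb4, Ndufb6 and Ndufs5, were chosen after their values were seen. Genes of complexes II to V were counted but not named, and 1 member, kept in all counts and medians, is not reported here by name or in the plots of single genes. Coordinates and lengths are from GENCODE vM21 (GRCm38), an earlier release than the authors' vM23, matched by 13390 of the tested genes. Counts of 78 library pairs differed by 6.11 to 49.5 times sampling noise, so none was deposited more than once.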

Additional observations from a re-analysis of the deposited data

Results flagged for a closer look

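In MSUS sample 1 the level of Ndufa4l2 was a log2 CPM of -0.36, apart from the other 6 MSUS samples, which lay between 0.75 and 1.37. The gap to the nearest of them was 0.64 of the whole range of the group. Groups of 6 or 7 samples were checked in 82 cases, of which chance alone would single out about 4.1, and this was the 1 found. The count of Ndufa4l2 in that sample was 7.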

How the results depend on the processing

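The count of Nduf genes lower at an unadjusted p under 0.05 (2) was 0 with Malat1, the mitochondrial share or the ribosomal protein genes as covariate. Of all 14421 genes, 199, 176 and 236 were lower in these fits in turn, against 346 in the main fit. The count of lower Nduf genes ranged from 1 to 6 with each sample left out. The 6 came from the fit without control sample 10, in which 3.5% of all genes were lower. The count of higher Nduf genes (1) was 0 with each of these covariates, where 202, 223 and 281 of all genes were higher in turn. It was also 0 in the exact permutation test and among genes above a log2 CPM of 2, since Ndufa4l2 then drops out. With a sample left out it ranged from 0 to 1. With the elongated spermatid markers as covariate the counts were 3 lower, 1 higher and 37 below 0, and the median over all 46 genes was -0.091 against -0.056. With the length and GC correction 3 were lower and that median was -0.026. The count below 0 (37) was 12, 22 and 20 with Malat1, the mitochondrial share and the ribosomal protein genes in turn and 27 to 39 with a sample left out. The median of the membrane arm was 0.063 with Malat1 and ranged from -0.11 to -0.03 with a sample left out, that of the matrix arm from -0.12 to -0.04 and that of the assembly factors from -0.06 (without control sample 14) to 0.03 (without MSUS sample 11). With Malat1, ND1 (-0.056) and ND4 (-0.039) turned in direction. The cause was not tested. edgeR, DESeq2, the scalings, filters and class moves left the list results within 1.5 times or within the spread, and over all alternatives that keep every sample 93 list results did so and 12 did not. Scaled by total counts without TMM, 469 of all genes were lower and 325 higher at an unadjusted p under 0.05, against 346 and 435, and with the upper quartile 444 and 379. Low counts limit Ndufa4l2 and Ndufaf6, whose intervals reach past 1.5-fold. No paired analysis was possible because the replicate numbers are animal numbers and the groups share none.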
